A study of Mus musculus with 3 samples.

Results

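The transfected control libraries of a reprogramming screen were set against the untransfected day 6 libraries of its time course. Their columns were read by name from the count table: 3 libraries of a non-targeting siRNA (nt), 5 of a mock transfection (Mock) and 3 of untransfected cells (Day06), 11 of the 127 libraries that passed the authors' filter out of 129 with counts. Each control was compared with Day06 on its own, and a gene that passed in the same direction in both was called held. The question is which transcripts differ between cells that went through transfection without a targeting siRNA and cells that did not, on the same nominal day.

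All 3 groups started from primary embryonic fibroblasts of wild-type BL6 mice that had been infected with 2 lentiviruses at a multiplicity of 1, a doxycycline-inducible cassette of Oct4, Sox2, Klf4 and c-Myc (tet-OSKM, STEMCCA) and the transactivator rtTA. They were reprogrammed at passage 2 on gelatin, in medium with 2 µg/mL doxycycline, the GSK3 inhibitor chiron at 3 µM, the TGFβ receptor inhibitor Alk5i at 0.25 µM, 50 µg/mL ascorbic acid and LIF, and both controls and Day06 were read at day 6. Cells of the screen were reverse transfected with pooled siRNA at 40 nM through the lipid carrier RNAiMAX, and were replated and induced 24 h later. Cells of the time course were only replated. What the Mock wells received besides the handling is not stated in the sources used here, nor whether the 2 same-named Mock columns of a replicate are separate wells or repeat libraries of 1 well, and the 5 Mock libraries entered as separate libraries. The controls are described as transfected in triplicate and the sequenced replicates as independent, but whether they came from separate preparations of fibroblasts is not stated. The p-values rest on a spread within conditions estimated over all 127 libraries, so they do not measure the spread of these 11 alone. Whether they cover differences between preparations is not known. Transfection and the added day before induction changed together between the controls and Day06 and cannot be told apart.

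RNAiMAX carries nucleic acid into cells through endosomes, and cells can answer foreign RNA through interferon-stimulated genes and lipid load through lysosomal and sterol genes. In reprogramming, OSKM factors silence the matrix and contractile genes of the fibroblast, and c-Myc drives nucleolar and ribosomal genes. In bulk RNA, fewer cells of a type and less RNA per cell cannot be told apart.

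RNA was profiled by CEL-Seq2, which reads transcript 3′ ends and counts each molecule once by its unique molecular identifier (UMI). Total counts ran from 75100 to 143156 in nt, from 38925 to 83089 in Mock and from 54084 to 144802 in Day06, so that the Mock libraries were the shallowest by median. A further Mock library of 6403 counts did not pass the authors' filter and was left out. Fibroblast markers were present in the 11 libraries (1603 counts over 11 genes, none at 0), whereas endothelial, keratinocyte, skeletal muscle and macrophage markers summed to 21, 26, 25 and 34 counts. Adipocyte markers summed to 85 counts (20 in nt, 18 in Mock and 47 in Day06), 82 of them of Lpl, and were lower in both controls without overlap, at 66.6 to 89.9 CPM in nt, 44.8 to 137 CPM in Mock and 170.4 to 181 CPM in Day06. The untransfected day 5 libraries (Day05) ran from 39.8 to 140 CPM for these markers and overlapped both controls. Lpl, lipoprotein lipase, passed lower in nt (-1.23 ± 0.442, adjusted p = 0.0279) and not in Mock (-1.03 ± 0.433, 0.0603). Against Day05 its difference was -0.26 in nt and -0.06 in Mock. Neural markers summed to 174 counts (52 in nt, 49 in Mock and 73 in Day06), of which Tubb3 had 85 and Stmn2 58. Their part in the results was not tested. Levels below are CPM, counts scaled to a common total of the tested genes, and fold changes are on the log2 scale with the standard error (SE) of the fit.

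A test by edgeR of 3013 genes, with the replicate number as a block, called 802 genes in nt against Day06 at an adjusted p under 0.05 (26.6% of those tested), 470 higher (15.6%) and 332 lower (11.0%). Mock against Day06 called 870 genes (28.9%), 525 higher (17.4%) and 345 lower (11.5%). A total of 563 genes were held (18.7%), 368 higher (12.2%) and 195 lower (6.47%), and 0 genes passed in opposite directions. Leaving out 1 replicate gave 314 to 576 genes in nt, 502 to 660 in Mock and 228 to 368 held, each lowest without replicate 3. Of the genes tested in all 3 such fits, 114 of 347 held higher and 36 of 188 held lower kept both calls in each. With the first Mock column of a replicate only, which leaves 2 Mock libraries, Mock called 472 genes and 348 were held. With the second column only, Mock called 727 genes and 496 were held. These comparisons share the Day06 libraries, so that a deviation of those 3 libraries enters both. Scaling by relative log expression (RLE) size factors in place of TMM shifted the median of all genes from -0.01 to -0.15 in nt and from -0.14 to -0.25 in Mock. Under it, 345 genes were higher and 436 lower in nt (44.2% higher, against 58.6% with TMM), 462 and 454 in Mock, and 276 and 282 were held higher and lower, so the excess of higher genes rests on the scaling. A limma test on the deposited log2 values of 10568 genes called 0 genes at that threshold in either comparison, with 1278 genes in nt and 1383 in Mock at an unadjusted p under 0.05.

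**Figure D1:**
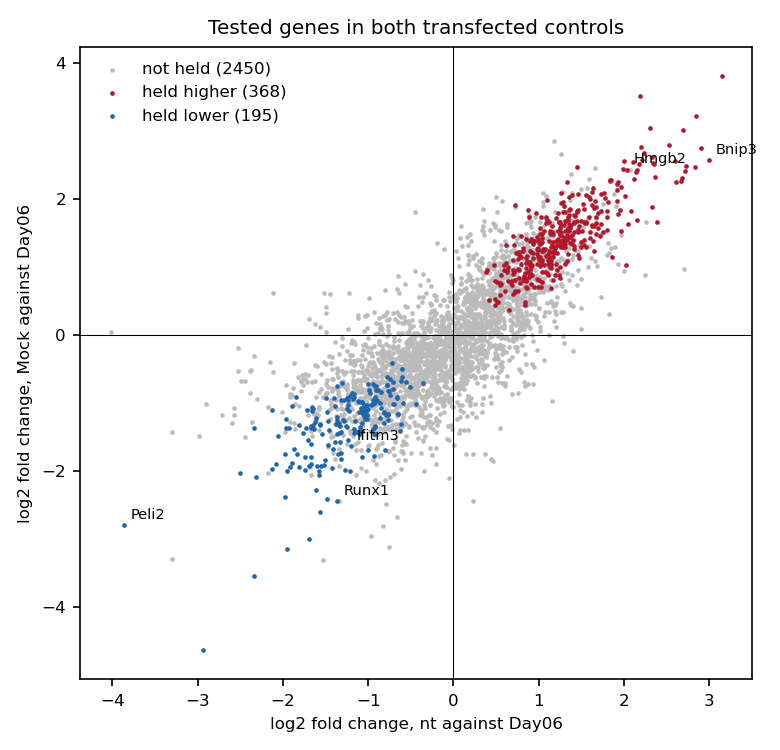
Each point is 1 of 3013 tested genes, with the log2 fold change of nt against Day06 on the horizontal axis and of Mock against Day06 on the vertical axis. Red points are the 368 genes held higher, blue points the 195 held lower and grey points the 2450 others. Both axes share the Day06 libraries.

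The difference between the controls themselves was smaller. Mock against nt passed for 47 genes (1.56% of those tested), and of the 546 genes called in 1 comparison only, it passed for 27. Of the 239 genes called in nt only, 227 had the same sign in Mock, and of the 307 called in Mock only, 286 had the same sign in nt. For 17 of the 563 held genes the controls also differed from each other.

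The most stringent reading of the data asks which held genes also differ from the day before. With Day05 in place of Day06, nt called 145 genes and Mock 306, and 63 genes were held higher (2.09% of those tested) and 25 lower (0.83%). A set of 59 genes was held higher against both days (1.96%) and 15 lower (0.498%), that is 16.0% of the 368 and 7.69% of the 195. These comparisons share the nt and Mock libraries. The names among the 74 that are given here outside the naming rule were chosen after their values were seen.

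The median difference of the genes held higher was 1.20 in nt and 1.38 in Mock against Day06 but 0.48 and 0.64 against Day05. For the genes held lower it was -1.21 and -1.23 against Day06, and -0.53 and -0.54 against Day05. The sign was the same against Day05 for 338 of the 368 and 167 of the 195. The nt and Mock libraries are those that the held genes were chosen on, so these values are descriptions. In the time course itself, the Day06 mean lay below the Day05 mean for 360 of the 368 genes held higher (97.8%, against 51.9% of all tested genes) and for 9 of the 195 held lower (4.62%). This count uses the same Day06 libraries as the rule and is a description. For 328 of the 368, Day05 lay between Day06 and both controls, and for 150 of the 195 likewise, against 634 and 558 of all 3013 tested genes.

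Bnip3, a mitochondrial outer membrane protein of mitophagy and a target of hypoxia-inducible factor, was held higher against both days. Its level in the 3 Day06 libraries was 74.2, 54.2 and 68.2 CPM. In nt it was 616, 688 and 457 CPM, and in Mock it ran from 223 to 692 CPM with a median of 446. Every control library lay above every Day06 library. The log2 fold change was 3.00 ± 0.352 (SE, edgeR adjusted p = 3.65e-13) in nt and 2.57 ± 0.370 (adjusted p = 1.67e-09) in Mock, and against Day05 it was 2.27 and 1.84. Gm45507 overlaps Bnip3 on the opposite strand, and whether the counting used strand is not stated. Bnip3 had 3 transcripts of other genes at 95% identity or more over 200 bases, so some of its count is uncertain. Bnip3 was the 1 member held of 7 hypoxia targets tested, near the 12.2% of all tested genes held higher, and the medians of these 7 were 0.70 in nt and 0.28 in Mock. Higd1a, a mitochondrial protein of the same list, passed in nt (1.80 ± 0.525, adjusted p = 0.00595) and not in Mock (1.18 ± 0.581, 0.115), and Lox, a collagen crosslinking enzyme, was lower in nt (-2.53 ± 0.931, 0.0315) on 2, 10 and 14 counts in nt, Mock and Day06. With an offset for GC content and length 2 members were held higher. Summed over all 28 genes of the list, Bnip3 and untested ones included, nt ran from 1307 to 1780 CPM, Mock from 1018 to 1816 CPM and Day06 from 633 to 914 CPM, without overlap. Bnip3 itself had means of 587, 457 and 65.5 CPM within list means of 1567, 1275 and 807 CPM in nt, Mock and Day06. The separation of the sums therefore rests largely on Bnip3, and the other members were not summed on their own.

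Npm1, the nucleolar chaperone nucleophosmin (chromosome 11, 33152287-33163206, minus strand, GRCm38), was 5729, 5997 and 6977 CPM in nt, from 4958 to 7120 CPM in Mock with a median of 6082, and 1795, 2259 and 2045 CPM in Day06. The controls lay above Day06 without overlap. The difference was 1.63 ± 0.146 (adjusted p = 8.11e-21) in nt and 1.62 ± 0.138 (adjusted p = 2.07e-22) in Mock, and 0.69 in both against Day05 (adjusted p = 0.000106 and 1.13e-05). Its 6 tested processed pseudogenes, 91.5% to 99.5% identical to it over the aligned bases, gave 2.61 to 2.90 in nt and 2.26 to 3.23 in Mock. Reads could be split among these copies, so that the value of a single copy is uncertain, and the sum of all 7 was therefore taken.

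Summed over Npm1 and its copies, nt held 22810, 23260 and 21550 CPM and Mock from 15080 to 22210 CPM, whereas Day06 held 4288, 4898 and 4472 CPM. Untransfected cells lay between 1704 and 2181 CPM at day 0 and between 8589 and 10090 CPM at day 5, above the 3 Day06 libraries. The 98 libraries of targeting siRNAs, which share no library with the controls, ran from 5923 to 26110 CPM with a median of 14170. Both controls lay above every day of the time course, and Day06 lay below Day05.

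**Figure D2:**
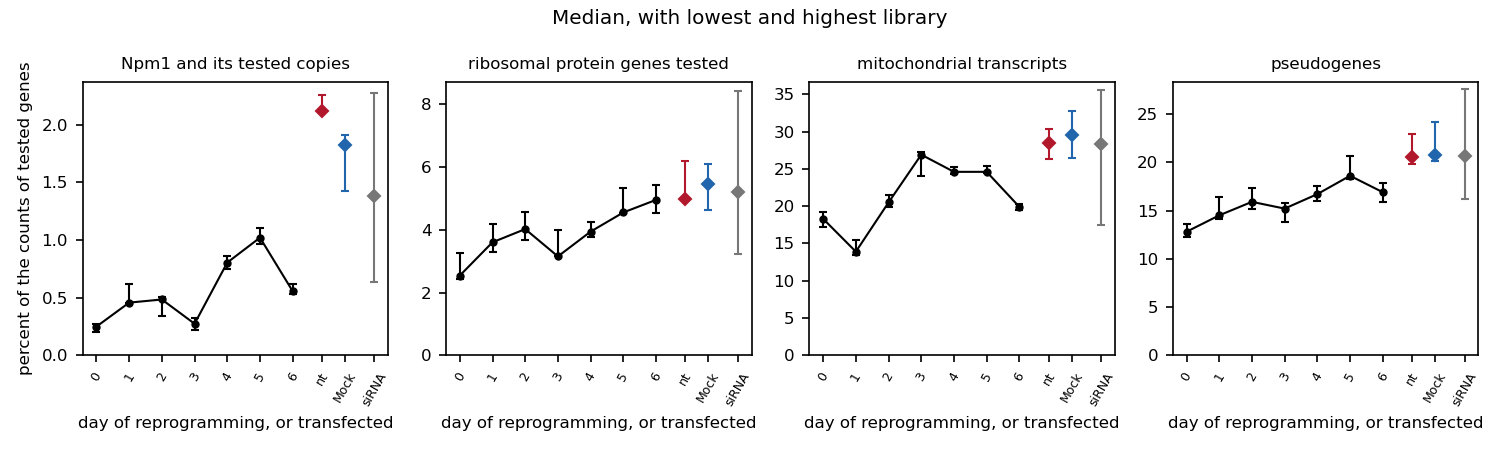
Share of the counts of tested genes, in percent, taken by Npm1 with its copies, the tested ribosomal protein genes, mitochondrial transcripts and pseudogenes, for each day of the untransfected time course (black), nt (red), Mock (blue) and the targeting siRNA libraries (grey). Points are medians and bars the lowest and highest library; Npm1 with its copies takes 2.11% to 2.26% in nt and 0.531% to 0.614% in Day06, and the ribosomal protein share of nt overlaps that of Day06.

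Hsp90aa1, the stress-inducible cytosolic HSP90, was also held higher than both days. It was 11191, 9362 and 9738 CPM in nt, 8100 to 9511 CPM in Mock and 3709, 4121 and 4077 CPM in Day06, a difference of 1.35 ± 0.135 (adjusted p = 3.50e-17) in nt and 1.19 ± 0.126 (5.24e-16) in Mock. Against Day05 it was 0.68 and 0.52. Hsp90aa1 had 3 such near-identical copies as well. Its constitutive counterpart Hsp90ab1 went the other way, at -0.78 ± 0.176 in nt (adjusted p = 0.000282) and -0.73 ± 0.167 in Mock (0.000218). That fall held against Day06 only: against Day05 the value was 0.01 in Mock, and without replicate 3 the nt call ended (adjusted p = 0.0877). Of 26 heat shock proteins and co-chaperones tested, 2 were held higher (Hsp90aa1 and Hspe1) and 2 lower (Hsp90ab1 and Cct3), near the 12.2% and 6.47% of all tested genes, with medians of -0.08 and -0.20. Hspe1 lost both calls without replicate 1 (adjusted p = 0.0792) and Cct3 its nt call without any 1 replicate (0.0513, 0.0792 and 0.0854).

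Psma4, an alpha subunit of the proteasome core, was 833, 763 and 899 CPM in nt, 894 to 1167 CPM in Mock and 326, 325 and 307 CPM in Day06. The rise was 1.42 ± 0.219 (adjusted p = 4.87e-08) in nt and 1.77 ± 0.210 (3.65e-13) in Mock, and 0.63 and 0.97 against Day05. Of 24 subunits tested, 4 were held higher (Psma1, Psma4, Psmc6 and Psmd8) and 2 lower (Psmc4 and Psmd1), near the 12.2% and 6.47% of all tested genes, with medians of 0.19 and 0.10. Psmd1, a base subunit of the regulatory cap, fell by 1.42 on the log2 scale in nt (adjusted p = 5.27e-05) and by 1.67 in Mock (2.17e-06), and it overlaps Gm21972. Psmc6 lost its Mock call without replicate 1 (adjusted p = 0.0536) and its nt call without replicate 2 (0.0819).

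Ssb, the La protein that binds the 3′ ends of small RNAs, rose by 1.17 ± 0.194 (adjusted p = 3.45e-07) in nt and 1.37 ± 0.185 (1.40e-10) in Mock, from a mean of 595 CPM in Day06 to 1351 and 1576 CPM. Naca, a ribosome-bound chaperone subunit, rose by 0.89 ± 0.186 (7.20e-05) and 0.96 ± 0.181 (4.80e-06). Hmgn5, a nucleosome-binding protein, was 44.5, 18.1 and 40.9 CPM in Day06 against 266, 194 and 155 CPM in nt, which is 2.35 ± 0.487 (6.86e-05), and 2.53 ± 0.479 in Mock (5.66e-06). All 3 also passed against Day05. H2afz, the histone variant H2A.Z, passed against both days as well at 0.73 ± 0.170 in nt and 1.21 ± 0.158 in Mock, but its nt call ended without replicate 3 (adjusted p = 0.105).

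Ribosomal protein genes gave more held transcripts than any other list examined. Of 71 tested, 29 were held higher and 2 lower, against 12.2% and 6.47% of all tested genes, and their median was 0.52 in nt and 0.68 in Mock beside -0.01 and -0.14 for all genes. Members against both days were Rpl7, Rpl10a, Rps7, Rps14, Rps20 and Rps27a. Against Day05 the list had 6 held higher and 0 lower, beside 2.09% and 0.83% of all tested genes. The count fell to 12 of 68 without replicate 3, to 16 without the replicate block, and to 24 (with 4 lower) with RLE scaling. Summed CPM of the tested genes ran from 51270 to 62820 in nt, 49350 to 65410 in Mock and 36060 to 43630 in Day06, and did not overlap. As a share of the counts of tested genes the groups did overlap, at 4.98% to 6.18% in nt, 4.64% to 6.10% in Mock and 4.52% to 5.42% in Day06.

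Rpl7, a protein of the large subunit, was 5645, 4726 and 3619 CPM in nt, 4890 to 7277 CPM in Mock and 2537, 2187 and 2440 CPM in Day06, a difference of 0.94 ± 0.146 (adjusted p = 4.90e-08) and 1.38 ± 0.136 (7.19e-18). Rps14, a protein of the small subunit with no near-identical copy found, was 1632, 1211 and 1291 CPM in nt against 579, 578 and 634 CPM in Day06, a difference of 1.18 ± 0.186 (8.12e-08) in nt and 1.20 ± 0.180 (6.82e-09) in Mock. Rps24 was 1316, 853 and 1258 CPM in nt, 695 to 1626 CPM in Mock and 490, 434 and 484 CPM in Day06, a difference of 1.30 ± 0.196 (2.39e-08) and 1.38 ± 0.192 (4.10e-10). Rpl7 had 9 near-identical copies. These 3 were higher in every control library than in every Day06 library. Rps24 had 9 transcripts of at least 95% identity over 200 bases, so its own count is uncertain, and it did not pass in both controls against Day05, where its mean was 844 CPM. Its day means rose from 288 CPM at day 0 to that level and then stood at 469 CPM at Day06. Rpl11, which binds Mdm2 when ribosome assembly fails, showed 2.14 ± 0.344 (1.53e-07) in nt and 2.39 ± 0.335 (5.54e-10) in Mock. The exceptions were Rpl6, at -0.65 ± 0.160 in nt (adjusted p = 0.000960) and -1.16 ± 0.160 in Mock, and Rps2, at -0.85 ± 0.262 and -0.83 ± 0.266.

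Messages of ribosomal proteins usually start with a run of pyrimidines, through which their translation is controlled. Windows around the annotated start of 4 ribosomal protein genes, from 40 bases before to 20 from the start (RefSeq, GRCm38.p6), show how this run varied among the held genes. Capitals mark the longest run of C and T within 20 bases on either side of the start, and where several starts are annotated the one with the longest run is shown. In Rps24 the run spans the start, in Rpl5 it ends before it, and in Rpl11 it reaches the end of the window, so that its full length was not measured. The windows lie at chr14:24490638-24490697 (plus strand), chr4:136053374-136053433 (minus), chr11:97782420-97782479 (minus) and chr5:107900488-107900547 (plus).
Rps24: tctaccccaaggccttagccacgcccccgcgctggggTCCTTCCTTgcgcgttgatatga
Rpl11: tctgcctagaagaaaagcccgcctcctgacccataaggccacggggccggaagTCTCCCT
Rpl23: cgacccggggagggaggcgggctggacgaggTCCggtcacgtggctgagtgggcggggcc
Rpl5: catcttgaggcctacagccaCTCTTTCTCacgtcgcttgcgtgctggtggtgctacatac
By the same rule, which cuts a run at the edge of the 20 bases, a run of at least 8 pyrimidines was found in 27 of 52 tested ribosomal protein genes with a window (51.9%) and in 4965 of 27025 windows of all genes (18.4%). It was found in 9 of the 19 ribosomal protein genes held higher (47.4%) and in 18 of the 33 others (54.5%), so the share was not larger among the held members. Among genes held higher that code for no ribosomal protein the share was 16.8%, and among genes held lower 17.3%.

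Pseudogene copies moved with the ribosomal protein genes. Of 270 tested pseudogenes close to a ribosomal protein gene, 107 were held higher and 6 lower, beside 12.2% and 6.47% of all tested genes. Over all annotated genes, 146 of 362 held higher were pseudogenes (40.3%), against 10 of 195 held lower (5.13%) and 13.5% of the others. Pseudogenes took 19.8% to 22.9% of the counts of tested genes in nt, 20.1% to 24.2% in Mock and 15.9% to 17.9% in Day06, and 18.3% to 20.6% in Day05. Near-identical copies share reads, so these counts do not say which locus was transcribed.

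Transcripts of the mitochondrial genome rose nearly as a block. Of 15 tested, 14 were held higher and 0 lower, beside 12.2% and 6.47% of all tested genes, though not with an offset for GC content and length. Their medians were 0.78 in nt and 0.94 in Mock, beside -0.01 and -0.14 for all genes. The exception was mt-Nd4l, which passed in Mock only. Together mitochondrial transcripts took 26.3% to 30.3% of the counts of tested genes in nt, 26.4% to 32.8% in Mock and 19.5% to 20.3% in Day06. Day05 held 24.4% to 25.4%, and the highest day of the time course was day 3 with a median of 26.9%. Against Day05, 5 of the 15 were held higher, beside 2.09% of all tested genes: mt-Co2, mt-Nd2, mt-Nd4, mt-Rnr1 and mt-Rnr2.

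The large ribosomal RNA mt-Rnr2 was 105430, 85323 and 76008 CPM in nt, 87814 to 143037 CPM in Mock and 29288, 30382 and 35557 CPM in Day06, a difference of 1.45 ± 0.161 (adjusted p = 1.73e-14) in nt and 1.68 ± 0.152 (9.38e-21) in Mock. The subunit of cytochrome oxidase mt-Co2 rose by 1.31 ± 0.191 (6.33e-09) and 1.69 ± 0.181 (1.25e-15), mt-Atp6 by 1.03 ± 0.132 (2.65e-11) and 1.37 ± 0.123 (9.38e-21), and mt-Cytb by 0.88 ± 0.125 (2.92e-09) and 0.93 ± 0.116 (4.02e-12). In each, the groups did not overlap. Mitochondrial transcripts are rich in A and T: with an offset for GC content and length fitted by library, 1 of the 15 stayed held and the medians were -0.17 and -0.15. In nt, mt-Atp6 and mt-Cytb then stood at -0.17 and -0.03, so that the list as a whole was not higher with this offset. Of 50 tested nuclear-encoded subunits of the same complexes, numbers near the 12.2% and 6.47% of all tested genes were held: 7 were higher, among them Uqcrh of complex III (1.01 ± 0.221, adjusted p = 0.000175, and 1.48 ± 0.208, 5.54e-10), and 4 were lower, among them Atp5b of ATP synthase (-1.01 ± 0.279 and -1.03 ± 0.281). Atp5b lost its Mock call without replicate 1 (adjusted p = 0.124) and its nt call without replicate 3 (0.119). Neither Uqcrh nor Atp5b passed in both controls against Day05.

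**Figure D3:**
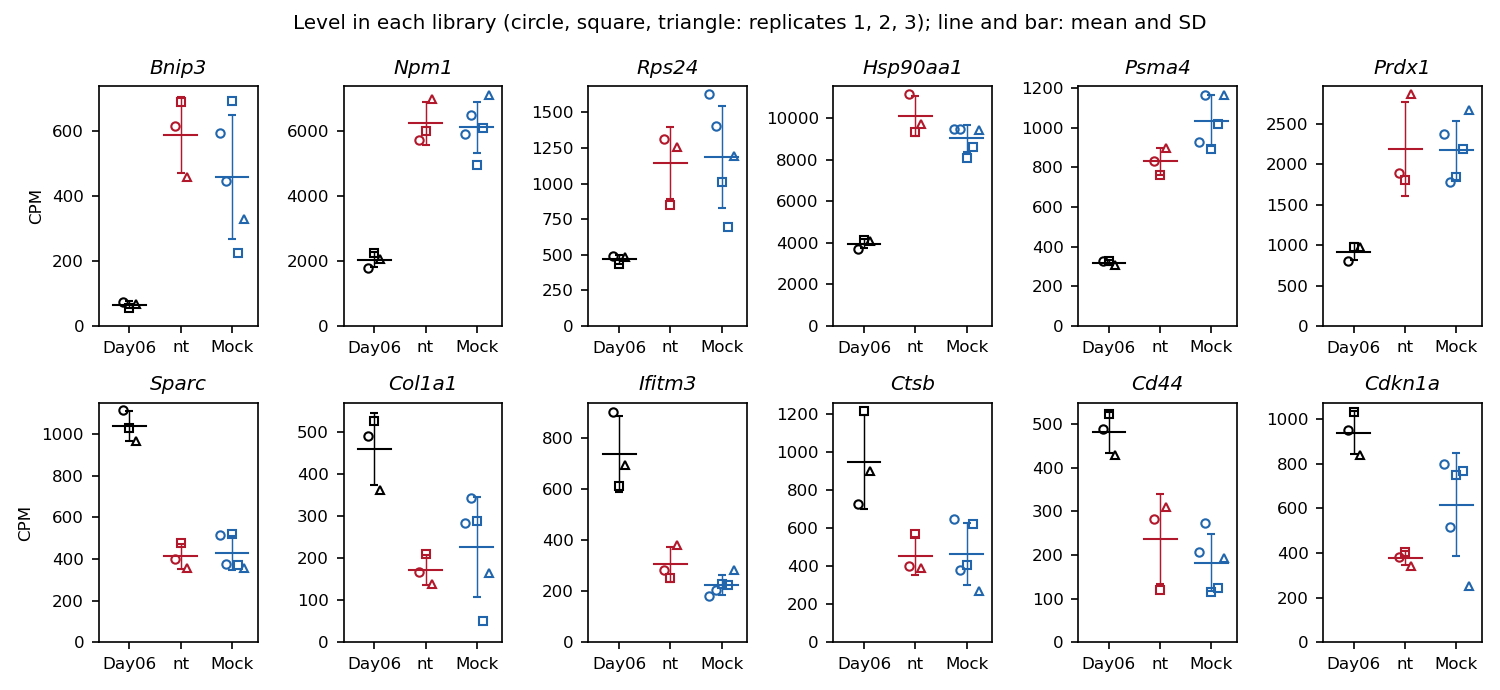
Level in CPM of 12 named genes in each of the 3 Day06 (black), 3 nt (red) and 5 Mock (blue) libraries, with the mean (line) and SD (bar); circles, squares and triangles are replicates 1, 2 and 3. In the upper row every control library lies above every Day06 library, and in the lower row every control library lies below every Day06 library.

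Sparc, a collagen-binding matrix protein, was held lower. It was 400, 479 and 359 CPM in nt, 358 to 519 CPM in Mock and 1113, 1030 and 968 CPM in Day06. The difference was -1.34 ± 0.217 (adjusted p = 1.93e-07) in nt and -1.29 ± 0.213 (1.51e-07) in Mock, and -0.82 and -0.78 against Day05. Sfrp1, a secreted Wnt antagonist, fell by 1.74 in nt (SE 0.270, adjusted p = 5.23e-08) and by 1.98 in Mock (SE 0.280, 8.69e-10), from 757, 705 and 627 CPM in Day06 to 183, 209 and 212 CPM in nt and 77.4 to 309 CPM in Mock. Cyp1b1, a cytochrome P450 that responds to the aryl hydrocarbon receptor, fell by 1.56 in nt (SE 0.294, 9.28e-06) and by 1.31 in Mock (SE 0.284, 9.32e-05). All 3 passed against Day05 and without any 1 replicate, and no control library overlapped Day06.

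Of 35 collagens, matrix and contractile genes tested, 6 were held lower (Col1a1, Col1a2, Sparc, Timp3, Thbs1 and Acta2) and 1 higher (Lum), beside 6.47% and 12.2% of all tested genes, with medians of -0.98 in nt and -0.71 in Mock. With the offset for GC content and length 1 was held lower and 1 higher, and the medians were -0.38 and 0.05. Col1a1, the chain of type I collagen, was 167, 209 and 139 CPM in nt, 49.7 to 343 CPM in Mock and 490, 524 and 361 CPM in Day06, a difference of -1.39 ± 0.305 (0.000176) and -1.04 ± 0.294 (0.00348). Its Mock call ended without replicate 2 (adjusted p = 0.147). Col1a2 gave -1.24 ± 0.247 (3.16e-05) and -0.95 ± 0.237 (0.000838). Both collagen genes passed against Day06 and not in both controls against Day05, and both lost calls under the offset.

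Lum, the collagen-binding proteoglycan lumican, ran against the list. It was 849, 284 and 245 CPM in nt, 323 to 836 CPM in Mock and 119, 72.3 and 177 CPM in Day06, a rise of 1.53 ± 0.379 (adjusted p = 0.00102) in nt and 1.67 ± 0.370 (0.000137) in Mock, and of 1.56 and 1.70 against Day05. The nt value leaned on replicate 1, without which the call ended (adjusted p = 0.156).

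The cytoskeletal actins Actb and Actg1 were also held lower against both days. Actb was 1532, 1406 and 882 CPM in nt, 1099 to 1910 CPM in Mock and 2181, 2223 and 1970 CPM in Day06, which is -0.78 ± 0.179 (adjusted p = 0.000330) and -0.61 ± 0.167 (0.00228). Actg1 fell by 1.03 in nt (SE 0.203, 2.44e-05) and by 1.10 in Mock (SE 0.198, 1.78e-06). Actg1 had 6 near-identical copies, and Mir6935 lies within it. Actb is often used to normalize transcripts between samples, and here its mean differed between groups beyond the spread of libraries. Its difference against Day05 was -0.85 and -0.68. Actb was no longer held with the offset for GC content and length or with the first Mock column only.

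The lysosomal proteases Ctsb and Ctsd were the 2 members held of 18 tested in the lysosome list, both lower, beside 6.47% of all tested genes held lower, and the medians of that list were -0.29 and -0.52. Ctsb was 400, 568 and 392 CPM in nt, 269 to 645 CPM in Mock and 727, 1211 and 900 CPM in Day06, a difference of -1.07 ± 0.209 (adjusted p = 2.18e-05) and -1.11 ± 0.206 (3.25e-06). Ctsd gave -0.96 ± 0.228 (0.000576) and -1.02 ± 0.229 (0.000180). Both passed against Day05 and both lost a call under the GC and length offset. Fdft1 overlaps Ctsb on the opposite strand, and Gm49369 overlaps Ctsd.

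Of 14 surface, cytoskeletal and transcription factor markers of mesenchymal cells tested, 4 were held lower (S100a6, Cdh11, Cd44 and Runx1) and 0 higher, beside 6.47% and 12.2% of all tested genes, with medians of -0.69 and -0.34. With the offset for GC content and length 1 was held lower and the medians were -0.51 and -0.07, and with no filter on low counts 0 were held. Cd44, the hyaluronan receptor, was 283, 120 and 310 CPM in nt, 115 to 275 CPM in Mock and 490, 524 and 429 CPM in Day06. Its difference was -0.92 ± 0.257 (adjusted p = 0.00376) and -1.34 ± 0.277 (3.87e-05), and -1.18 and -1.59 against Day05. The nt call ended without replicate 2 (adjusted p = 0.262). S100a6 and Cdh11 did not pass in both controls against Day05, and S100a6 lost its nt call without replicate 1 (adjusted p = 0.553) or 2 (0.344) and Cdh11 both calls without replicate 3 (0.198 and 0.0694). Runx1 lost both without replicate 1 (0.711 and 0.194). Thbs1, Serpine2, Gsn and Vcam1, of matrix, protease inhibition, actin severing and cell adhesion, also passed lower against both days. Of these, Serpine2 passed without any 1 replicate, whereas Gsn lost both calls without replicate 3 (adjusted p = 0.0562 and 0.0892), Thbs1 its Mock call without replicate 1 (0.0825) or 2 (0.145), and Vcam1 its nt call without any 1 replicate (0.276, 0.0768 and 0.154) and its Mock call without replicate 1 (0.342) or 3 (0.141).

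**Figure D4:**
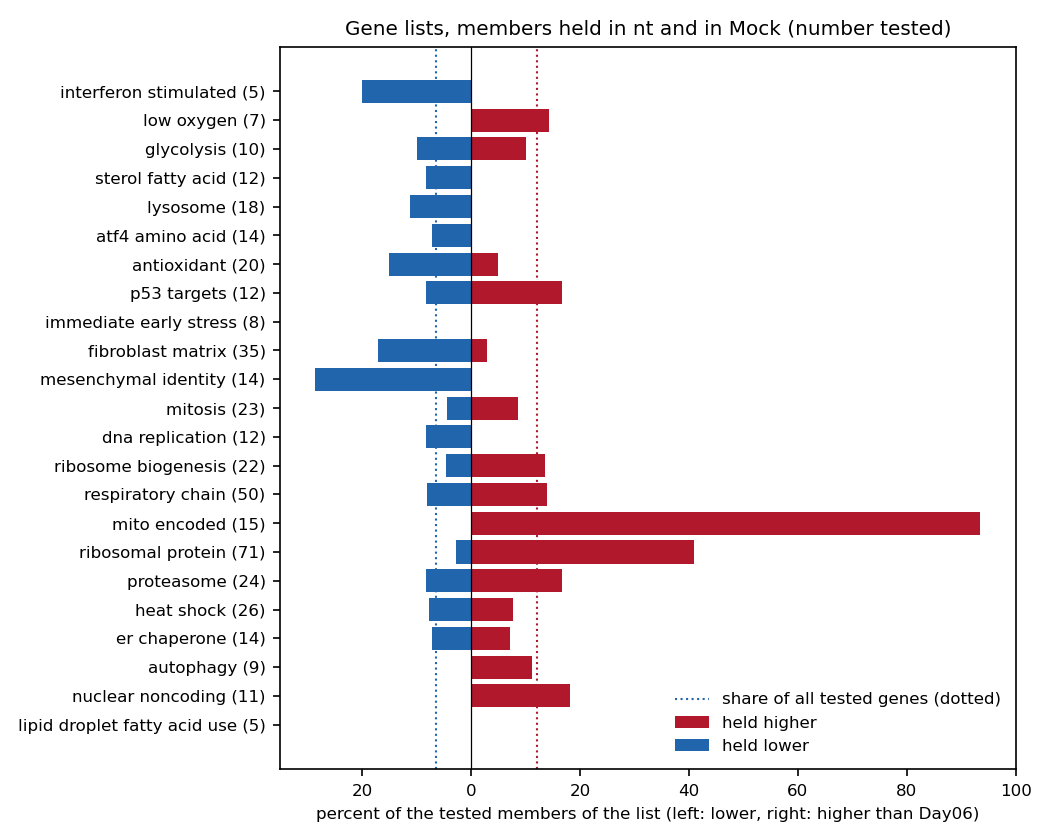
For each list of genes, with the number tested in parentheses, bars give the percent of tested members held lower (blue, to the left) and held higher (red, to the right) than Day06 in both controls. Dotted lines are the shares over all tested genes, 6.47% lower and 12.2% higher; mitochondrial transcripts and ribosomal protein genes extend farthest to the right.

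Genes that answer foreign RNA were barely measured. Of 37 interferon-stimulated genes listed, 36 had a count in some library and 5 were tested, of which 0 were held higher and Ifitm3 lower, beside 12.2% and 6.47% of all tested genes. Ifitm3, an antiviral protein of endosomal membranes, was 283, 254 and 384 CPM in nt, 181 to 284 CPM in Mock and 905, 614 and 695 CPM in Day06, a difference of -1.21 ± 0.237 (adjusted p = 2.44e-05) and -1.64 ± 0.252 (1.82e-08). Summed over the 36 genes with a count, nt ran from 942 to 1095 CPM, Mock from 645 to 1015 CPM, Day06 from 1329 to 1677 CPM and Day05 from 942 to 1383 CPM. Ifitm1, of the same family, passed higher in nt (1.31 ± 0.411, adjusted p = 0.0106) and not in Mock (0.65 ± 0.454, 0.292). The summed level of the list was thus not higher in nt or Mock at this depth. Against Day05 Ifitm3 did not pass in both controls. Ago2, the slicer that loads siRNA, was lower at -1.73 ± 0.478 (0.00357) and -1.36 ± 0.458 (0.0152) on 13, 15 and 48 counts in nt, Mock and Day06, and these calls ended without replicate 3 (adjusted p = 0.177 and 0.187), and in Mock also without replicate 2 (0.171).

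Of the NRF2 antioxidant list, 1 member was held higher and 3 lower, beside 12.2% and 6.47% of all tested genes. In this list of 20 tested, Prdx1, a peroxiredoxin, rose by 1.27 ± 0.174 (adjusted p = 7.69e-10) and 1.32 ± 0.168 (9.95e-12), whereas the ferritins Fth1 and Ftl1 and the glutathione transferase Gsto1 were lower (Gsto1 -0.70 ± 0.166 and -1.01 ± 0.160). Fth1 lost its Mock call without replicate 1 (adjusted p = 0.384) and both calls without replicate 2 (0.0761 and 0.174). Prdx1 passed in neither control against Day05, where its mean was 2094 CPM beside 2192 CPM in nt, 2172 CPM in Mock and 920 CPM in Day06. Of 12 p53 targets tested, 2 were held higher and 1 lower, near the 12.2% and 6.47% of all tested genes. Cdkn1a, the inhibitor p21, was lower at -1.31 ± 0.220 (4.93e-07) and -0.70 ± 0.201 (0.00394), with Mock losing its call without replicate 3 (adjusted p = 0.161). It did not pass in both controls against Day05. Ccng1 and Trp53inp1 were held higher. Ccng1 lost its Mock call without replicate 2 (0.176) or 3 (0.228), and Trp53inp1 both calls without replicate 3 (0.507 and 0.743). Of immediate early and stress genes, 8 were tested and 0 held in either direction, by edgeR, with medians of -0.80 and -0.38. Summed over all 30 genes of that list, untested ones included, the level was lower in both controls without overlap, from 474 to 583 CPM in nt, 645 to 894 CPM in Mock and 975 to 1193 CPM in Day06. Among 14 genes of the ATF4 response Slc3a2 was held lower, and of 12 sterol and fatty acid genes Scd2 was held lower, near the 6.47% of all tested genes, with medians of -0.73 and -0.70 in the latter list. Both lost a call without 1 replicate, Slc3a2 in Mock without replicate 2 (adjusted p = 0.346) and Scd2 in nt without replicate 3 (0.0993).

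Cell cycle and nucleolar lists held numbers of genes near the shares of all tested genes. Of 23 mitotic genes tested, Hmgb2 and Arl6ip1 were held higher and Bub3 lower, with medians of 0.04 and -0.19. Bub3 lost both calls without replicate 1 (adjusted p = 0.130 and 0.0675) and its nt call without replicate 2 (0.0532). Hmgb2, a chromatin protein of dividing cells, rose by 2.04 ± 0.389 (1.28e-05) and 2.44 ± 0.370 (1.14e-08) with 5 near-identical copies. Of 12 replication genes Mcm2 was held lower, on 13, 8 and 43 counts, and its nt call ended without replicate 3 (adjusted p = 0.106). Of 22 nucleolar genes 3 were held higher (Npm1, Nop58 and Nop10) and Rrs1 lower. Summed over all 33 genes of that list, Npm1 and untested ones included, the level was 12010 to 13260 CPM in nt, 10120 to 12390 CPM in Mock and 7003 to 8260 CPM in Day06, without overlap. Day05 ran from 9350 to 10410 CPM and overlapped Mock. Npm1 itself had means of 6234, 6112 and 2033 CPM within list means of 12600, 11550 and 7705 CPM in nt, Mock and Day06. The separation of the sums from Day06 therefore rests largely on Npm1, and the other members were not summed on their own. Nop58, a core box C/D snoRNP protein, rose by 1.22 ± 0.215 (1.81e-06) and 1.21 ± 0.211 (7.97e-07), from 490, 488 and 361 CPM in Day06 to 1066, 1032 and 948 CPM in nt. The snoRNA host genes Snhg1 and Snhg5 were held higher among 11 nuclear noncoding RNAs, beside 12.2% of all tested genes, Snhg5 at 1.37 ± 0.333 (0.000756) and 1.86 ± 0.314 (3.20e-07). Hmgb2, Nop58 and Snhg5 did not pass in both controls against Day05. Nop10 and Rrs1 lost calls without single replicates (adjusted p up to 0.281 and 0.0957), and Snhg1 in nt without replicate 3 (0.0512).

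Of 10 glycolysis genes tested, 1 was held higher (Pgk1) and 1 lower (Pgam1), near the 12.2% and 6.47% of all tested genes. Pgk1 and Pgam1 are enzymes of neighbouring steps. Pgk1 was 1565, 2273 and 2026 CPM in nt, 951 to 1343 CPM in Mock and 519, 741 and 429 CPM in Day06, a difference of 1.86 ± 0.200 (adjusted p = 2.38e-15) and 1.16 ± 0.204 (1.03e-06). Pgam1 gave -1.32 ± 0.238 (3.00e-06) and -1.42 ± 0.238 (2.74e-07). Neither passed in both controls against Day05. Pgk1 was the named held gene for which the controls themselves differed, with Mock lower than nt.

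Markers of the pluripotent state could hardly be read. Of 33 listed, 3 were tested, and 1, the repressor scaffold Trim28, was held lower (-1.03 ± 0.356 and -1.04 ± 0.357), and at least 1 of its calls ended without any 1 replicate, in nt without replicate 2 (adjusted p = 0.244) or 3 (0.160) and in Mock without replicate 1 (0.0953) or 3 (0.307). Of 29 epithelial genes 0 were tested. The factors of the cassette were not tested either, since their UMI counts over nt, Mock and Day06 were 4, 5 and 1 for Pou5f1, 3, 0 and 1 for Sox2, 3, 5 and 3 for Klf4, and 2, 0 and 4 for Myc. For Pou5f1 the ratio of nt to Day06 was 4.32 with a 95% counting interval of 0.428 to 213, so that a difference was not detectable at this depth.

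Several of the largest fold changes rested on few counts. Prelid2, a protein of mitochondrial lipid transport, had 21, 21 and 3 counts in nt, Mock and Day06, a ratio of 7.56 in nt (95% counting interval 2.26 to 39.6) and 8.99 in Mock (2.68 to 47.1). Apela, a peptide hormone of the early embryo, had 19, 18 and 3 counts, a ratio of 6.84 (2.01 to 36.1) and 7.70 (2.25 to 40.8), and it overlaps Gm45886. At the other end, Peli2, an E3 ligase of Toll-like receptor signalling, had 2, 4 and 38 counts, a ratio of 17.6 in favour of Day06 in nt (4.54 to 150), and it overlaps Gm6498. Wee1, the kinase that restrains CDK1, had 3, 1 and 18 counts, a ratio of 5.55 (1.62 to 29.4) against nt and 14.0 (2.21 to 584) against Mock. Apela lost both calls without replicate 3, and Wee1 lost both without replicate 1 or 2. More deeply counted among the largest changes were Yme1l1, a protease of the mitochondrial inner membrane (49, 58 and 11 counts, 2.23 ± 0.479 and 2.67 ± 0.453), which passed in neither control against Day05 (-0.14 and 0.30), and Npnt, a matrix protein of epithelial basement membranes (9, 9 and 43 counts, -2.13 ± 0.509 and -1.97 ± 0.504). The clone-named genes RP24-389J11.1 and RP23-184H3.5, for which the annotation used here gave no gene type, were also among the 12 and passed against both days. RP24-389J11.1 was 2248, 3006 and 2247 CPM in nt, 1960 to 3159 CPM in Mock and 490, 398 and 511 CPM in Day06, a difference of 2.36 ± 0.230 (adjusted p = 4.59e-18) and 2.33 ± 0.222 (7.17e-19). RP23-184H3.5 gave 2.60 ± 0.282 (4.41e-15) and 2.56 ± 0.279 (2.97e-15).

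The other genes named by size were held higher on 3 to 5 counts in Day06 (Aimp1, Prl2c1, Phospho2, Zfp960 and Aurkaip1) or held lower on 14 counts or fewer in nt and in Mock (Fbn2, Iars, Dlg5, Psmc4, Akt1, Arid1a, Cyb5b and Irf2bpl). Fbn2, the fibrillin of elastic fibres in the embryo, had 8, 8 and 45 counts in nt, Mock and Day06 (-2.31 ± 0.559 and -2.08 ± 0.553), and its Mock call ended without replicate 3. Cyb5b, an outer mitochondrial membrane cytochrome, had 14, 14 and 63 counts (-2.08 ± 0.456 and -1.89 ± 0.449). Of the 12 genes named by size in each direction, 8 and 8 were tested in every fit that left out 1 replicate, and 5 of those higher and 3 of those lower kept both calls in all 3 fits.

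Held genes also differed from the others in their transcripts. Among protein-coding genes, the median length of the longest transcript was 1927 bases for 207 held higher, 3316 for 185 held lower and 3509 for 2041 others, and the median GC content was 42.7%, 49.9% and 46.5%. Among those without a near-identical copy the lengths were 2198, 3520 and 3700 bases and the GC contents 42.2%, 50.0% and 46.6%. Across the 2433 protein-coding genes, Spearman's rho between GC content and the fold change was -0.34 in nt and -0.29 in Mock, and between length and the fold change -0.26 and -0.29. Genes are not independent replicates, and these are descriptions.

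Genes were divided into 3 bins of GC content and 3 of length. In the bin of lowest GC content (31.9% to 43.8%) 14.8% were held higher and 3.21% lower. In the bin of highest GC content (49.5% to 67.2%) it was 4.19% and 12.2%. By length, 16.3% of the shortest bin were held higher and 2.84% of the longest, while the share held lower was between 7.27% and 8.13% in each. With an offset for both features the held genes numbered 250, of which 213 were among the 563. Bnip3, Npm1, Hsp90aa1, Psma4, Rpl7, Rps14, Sparc, Sfrp1 and Cyp1b1 kept both calls, whereas Actb, Col1a1, Col1a2, Ctsb, Ctsd, Cd44, Cdkn1a, Hsp90ab1, Uqcrh, Snhg5 and mt-Co2 lost at least 1.

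**Figure D5:**
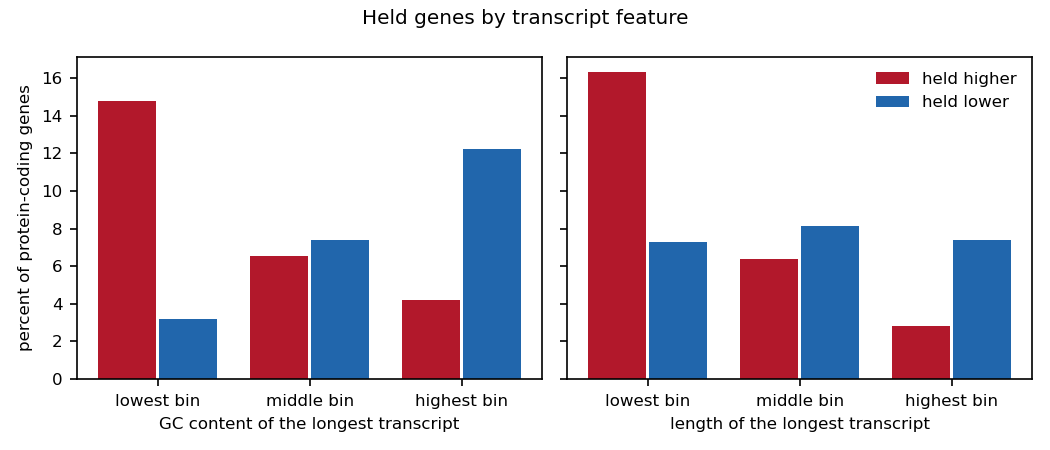
Percent of protein-coding genes held higher (red) and held lower (blue) than Day06 in both controls, in 3 bins of the GC content (left) and the length (right) of the longest transcript. The share held higher falls from 14.8% to 4.19% across bins of GC content and from 16.3% to 2.84% across bins of length, and the share held lower rises from 3.21% to 12.2% across GC content.

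The held genes were also set against every day of the untransfected time course. For 315 of the 368 genes held higher (85.6%), the means of both controls lay above every day mean, and for 126 of the 195 held lower (64.6%) they lay below every day mean, against 19.9% and 15.9% of all tested genes. All 8 control libraries lay above all 3 Day06 libraries for 231 of the 368 and below them for 124 of the 195, against 275 and 196 of all 3013. These counts include the Day06 libraries and the controls that the rule used and are descriptions.

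The targeting siRNA libraries were compared with Day05, which shares no library with nt, Mock or Day06 but is the same Day05 that the set held against both days rests on. Of the 33 siRNA conditions as a mean against Day05, 143 genes were higher (4.75% of those tested) and 141 lower (4.68%). The split was 121 and 179 with RLE scaling, 98 and 165 with DESeq2, and 37 and 379 with no filter on low counts. Among genes held higher in the controls 99 of 368 were higher there (26.9%) and 1 lower, with a median of 0.35, and among genes held lower 34 of 195 were lower (17.4%) and 1 higher, with a median of -0.25. Of the genes not held, 1.76% were higher and 4.33% lower. Bnip3 (1.54, adjusted p = 1.01e-06), Rpl7 (0.88, 2.59e-11), Cd44 (-0.91, 1.20e-06), Ctsb (-0.55, 0.00137) and Npm1 (0.36, 0.00887) were among those that passed, and all 5 belong to that set. Yme1l1 (-0.42, 0.260), Prdx1 (-0.25, 0.151) and Hsp90ab1 (0.11, 0.662) were among those that did not.

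Many held genes changed over reprogramming too. From Day00 to Day05, in untransfected libraries that neither comparison used, 507 genes were higher (16.8% of those tested) and 453 lower (15.0%), and with RLE scaling 376 and 622, with DESeq2 323 and 573. Of the 368 held higher, 224 had risen (60.9%) and 4 had fallen, with a median of 1.11. Of the 195 held lower, 73 had fallen (37.4%) and 7 had risen, with a median of -0.56. The genes held higher in the controls were thus mostly ones whose level was also higher at day 5 than at day 0, and their Day06 level stood below that of Day05.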

How the data were processed

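The authors mapped CEL-Seq2 reads with Bowtie2 to mm10 and counted them with the CEL-Seq2 pipeline and GENCODE vM13, and deposited UMI-corrected counts per gene symbol, not normalized, for 50507 genes. A deposited table of 10568 genes gives log2 values, which the authors made as log2 CPM after size factors and regression of the batch. The labels give the replicate, and each column name gives the condition. The 2 Mock columns of a replicate share a name and were told apart by column order. In the log2 table, replicate 3 has a lone Mock column, which matched the second count column (r = 0.9236 against 0.0172).

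Counts of all 127 passing libraries were fitted by the edgeR quasi-likelihood test (edgeR 4.0.16, R 4.3.3) with TMM scaling, filterByExpr by condition, a term per condition and the replicate number as a block. Residual degrees of freedom were 83 over 3013 genes tested, and the common dispersion was 0.0158. For the 11 libraries the TMM factors ran from 0.858 to 1.25, and the tested genes held 81.5% to 87.8% of the counts. Each comparison was adjusted on its own by Benjamini-Hochberg, and an adjusted p under 0.05 was called. Per the labels, the number marks a shared sequenced pool. The deviations of same-numbered libraries from their group means correlated with a median r of 0.0398 (13 pairs, -0.0085 to 0.167), against -0.0252 for other pairs (26 pairs), and the block was kept. On simulated counts, the nt comparison recovered 34% of genes changed 2-fold and 90% of those changed 4-fold with 11 false calls, and the Mock comparison 41% and 92% with 6. The simulation tested 2468 genes, with a single dispersion above the common one of the fit and no replicate effect. Changed genes were drawn from those at or above the median level. These rates are therefore not those of the 3013 genes tested here.

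The genes, gene lists and comparisons were chosen with earlier results of these data known. Named genes were the 12 held genes in each direction with the largest smaller fold change, at 50 CPM or more, of the same sign in each replicate and not named as a predicted gene model (Gm), Rik clone or pseudogene, up to 4 held members of each list by adjusted p, up to 5 genes that differed between Mock and nt, and the cassette factors. Others were chosen after their values were seen. For 1 listed gene the result is not reported here. Alternatives were RLE scaling, DESeq2 1.42.0, limma 3.58.1 on the log2 values, other filters, no block, fewer libraries, Day05 as reference, and, added after seeing the data, fits without mitochondrial transcripts, with GC content and length offsets, and of the siRNA libraries against Day06. Positions and transcript features came from GENCODE vM21 on GRCm38, the same assembly as mm10. Counting intervals (exact, 95%) and floors cover counting error only.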

Additional observations from a re-analysis of the deposited data

Results flagged for a closer look

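Of 92 values examined in the 5 Mock libraries, 4 had a library far from the others by Dixon's test, with a critical value of 0.71. Chance flags about 1 in 20 such values. The total count was highest in the Mock library of replicate 3, at 83090 after rounding. Prelid2 was lowest in that library, at 29.85 CPM, and Wee1 had its single count in it, at 14.93 CPM. Akt1 was found in 1 Mock library alone, of replicate 2, at 49.65 CPM. Each of these 3 genes rests on few counts.

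For 6 of the named genes Mock and nt differed from each other in the edgeR test of that difference. Pgk1 was lower in Mock by 0.70 on the log2 scale (Mock against nt -0.70, adjusted p = 0.00771). Gm13408 was higher in Mock by 1.30 (adjusted p = 1.08e-07), from 316, 538 and 629 CPM in nt to between 903 and 1567 CPM in Mock. Gm21738 was higher by 1.31, Gm10717 by 1.21 and Gm11168 by 1.38, and mt-Nd4l by 1.01. These last 5 passed in Mock against Day06 and not in nt, and Gm13408, Gm10717 and Gm11168 each have 5 to 7 near-identical copies, so that their own counts are uncertain. The mitochondrial gene mt-Nd4l overlaps mt-Nd4.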

How the results depend on the processing

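Counts of genes called at an adjusted p under 0.05 moved with the reference day, the filter and the block, and the causes were not tested. With Day05 in place of Day06, nt called 145 genes, Mock 306, and 88 were held. No filter on low counts left 308 in nt, 458 in Mock, 19 in Mock against nt, 634 in Day05 against Day00 and 213 held. With no replicate block these were 461 in nt, 10 in Mock against nt, 123 for the siRNA libraries against Day05 and 329 held, beside 802, 47, 284 and 563 with it; Mock called 635 beside 870. Limma on the log2 values called 0 in nt, Mock, Mock against nt and held. DESeq2 called 73 genes in Mock against nt. Leaving out 1 replicate gave 314 to 576 genes in nt, 502 to 660 in Mock, 15 to 21 in Mock against nt, 115 to 213 for the siRNA libraries, 486 to 842 in Day05 against Day00 and 228 to 368 held, each lowest without replicate 3 and, for Mock against nt, also without replicate 2. The first Mock column alone gave 472 in Mock, 21 in Mock against nt and 348 held, and the second 727 in Mock, 26 in Mock against nt and 496 held. The siRNA libraries against Day06 gave 1109. GC content and length offsets gave 390 in nt, 505 in Mock and 250 held. Signs turned with Day05 as reference for Prl2c1 (-0.05), Yme1l1 (-0.14), Akt1 (0.86), Scd2 (0.11) and S100a6 (0.05) in nt and for Hsp90ab1 (0.01) in Mock, and with the offsets for Ndufa4 (-0.02), mt-Atp6 (-0.17), mt-Cytb (-0.03), Gm21738 (-0.86) and Gm10717 (-1.12) in nt and Gm11168 (-0.02) in Mock. Of the 74 genes held against both days, 69 stayed held with RLE scaling, 70 with DESeq2, 63 with no block, 61 to 67 without 1 replicate and 46 of 72 with the offsets, and 0 with limma. Of 160 calls of named held genes, RLE kept 155 and Day05 57. Libraries of 38925 to 144802 counts limit what can be said of genes of low counts.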
